A study of Mus musculus with 2 samples.

Results

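The genes described here are the 4 classical class II chains of the mouse (H2-Aa, H2-Ab1, H2-Ea and H2-Eb1), the invariant chain gene Cd74, the transactivator gene Ciita, and Rfx5, Rfxap and Rfxank, which encode the RFX complex. They were found on the arrays by the RefSeq accession of the probe or else by gene symbol, which gave 15 probes for the 9 genes out of 41174 gene probes. Ciita is listed under an older name and was found by its accession. Of these probes, 8 belong to the 4 genes within the H-2 region on chromosome 17 and 7 to the 5 genes elsewhere. All 15 were well above background in both channels on both arrays, so no member was lost to the filter on dim probes.

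The series compared autoreactive with non-autoreactive immature B cells of mouse bone marrow on 2 Agilent two-colour arrays. The autoreactive cells came from BALB.B mice with the genotype 3-83Igi, Rag1-/-, H-2b and were labelled with Cy5. The non-autoreactive cells came from BALB/c mice with the genotype 3-83Igi, H-2d and were labelled with Cy3. Both groups carry the 3-83Igi knock-in of an antigen receptor with specificity for class I of H-2b, and both were pooled and sorted as B220+ cells negative for CD43, IgD and CD23. Strain, haplotype, the Rag1 disruption and the dye follow the groups, so for every gene below they cannot be told apart from autoreactivity. The labels number 2 autoreactive pools without naming the animals in each. The p-values rest on these 2 arrays and on the spread of all probes, and do not measure the spread between animals.

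Class II molecules are pairs of an alpha and a beta chain that carry peptides from endosomes to the surface of B cells, dendritic cells and macrophages, where CD4+ T cells read them. H2-Aa with H2-Ab1 forms the I-A molecule, and H2-Ea with H2-Eb1 forms I-E. The invariant chain, Cd74, holds the groove of the new pair closed until it reaches the endosome. Transcription of all these genes depends on a promoter module with an X box and a Y box, bound by the RFX complex, CREB and NF-Y, onto which CIITA is recruited. The H-2b haplotype carries a deletion in the promoter of the E alpha gene, and the RefSeq annotation of C57BL/6J, an H-2b strain, lists H2-Ea as a transcribed pseudogene.

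The promoter module is shown for the 2 chain genes lower in autoreactive cells for which RefSeq promoter windows (GRCm38.p6, 250 bases before to 50 after the transcript start, gene strand) were used here. The H2-Aa window is chr17:34287774-34288073 on the minus strand and that of H2-Eb1 is chr17:34305617-34305916 on the plus strand. Capitals mark the Y box core (ATTGG) in both windows, the X box core (AGNNACNG) in H2-Eb1, and in H2-Aa the core of the adjoining X2 box (TGACG), a motif searched for after the sequences had been seen.
H2-Aa: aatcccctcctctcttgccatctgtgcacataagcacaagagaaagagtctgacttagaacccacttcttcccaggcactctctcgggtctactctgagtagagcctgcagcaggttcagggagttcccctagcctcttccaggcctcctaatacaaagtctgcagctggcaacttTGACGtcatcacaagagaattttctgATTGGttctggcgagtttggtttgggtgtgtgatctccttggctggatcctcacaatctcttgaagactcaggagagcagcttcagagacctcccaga
H2-Eb1: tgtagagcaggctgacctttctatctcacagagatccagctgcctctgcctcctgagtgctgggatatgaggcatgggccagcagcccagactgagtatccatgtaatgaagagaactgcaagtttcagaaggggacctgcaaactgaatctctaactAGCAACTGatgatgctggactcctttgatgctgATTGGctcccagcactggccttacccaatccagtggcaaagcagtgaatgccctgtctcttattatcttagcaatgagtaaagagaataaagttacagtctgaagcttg
In H2-Eb1 the X box core starts at position -92 from the transcript start and is followed after 25 bases by the Y box core. In H2-Aa no match to the X box core was found, and the X2 core at position -74 is followed after 21 bases by the Y box core. Both strands were searched, and further matches to the X and Y cores in the H2-Eb1 window and to the X2 core on the opposite strand in the H2-Aa window, where the palindrome overlaps the first match, were left in lower case. Of all 32851 promoter windows of the same length, 2.13% hold an X box core followed by a Y box core within 40 bases on one strand, and 1.12% an X2 core followed by a Y box core. Single cores are common, at 37.4% of windows for the Y box core, 50.9% for the X box core and 20.8% for the X2 core. A match describes the letters of the window and shows no binding.

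Of 22613 probes tested with limma (Benjamini-Hochberg adjusted p below 0.05), 494 were lower in autoreactive cells (2.18%) and 718 higher (3.18%), with 434 higher and 406 lower from the deposited ratios. Ratios are given on the log2 scale with autoreactive cells on top, and their errors are standard errors from limma over 2 arrays, which rest mostly on the spread of all probes (prior degrees of freedom 5.10, residual 1). Across tested probes, which are not independent replicates, the 2 arrays correlated with r = 0.695. The share of gene spots well above background lay between 54.1% and 57.4% per channel, none was saturated, and the number of arrays limits the precision. Levels below are normalized log2 intensities, which may be compared between channels for 1 probe and not between probes. Where channels are said not to overlap, this rests on 2 arrays and also holds for member probes that were not called. The share of all tested probes without overlap was not counted.

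By the brightest probe of each gene, 6 of the 9 genes were lower in autoreactive cells and none was higher, where 2.62% of 15102 genes tested were lower. The 6 are all 4 chains, Cd74 and Ciita. None of the 3 RFX genes was called. The median log2 ratio of the 9 genes was -1.21, with -1.08 on array 1 and -1.35 on array 2, beside -0.0019 over all genes. Counted by probe, 7 of 15 were lower and none higher, and 10 of 15 lay below 0 on both arrays. These are counts of genes chosen with earlier results of these data known.

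**Figure D1:**
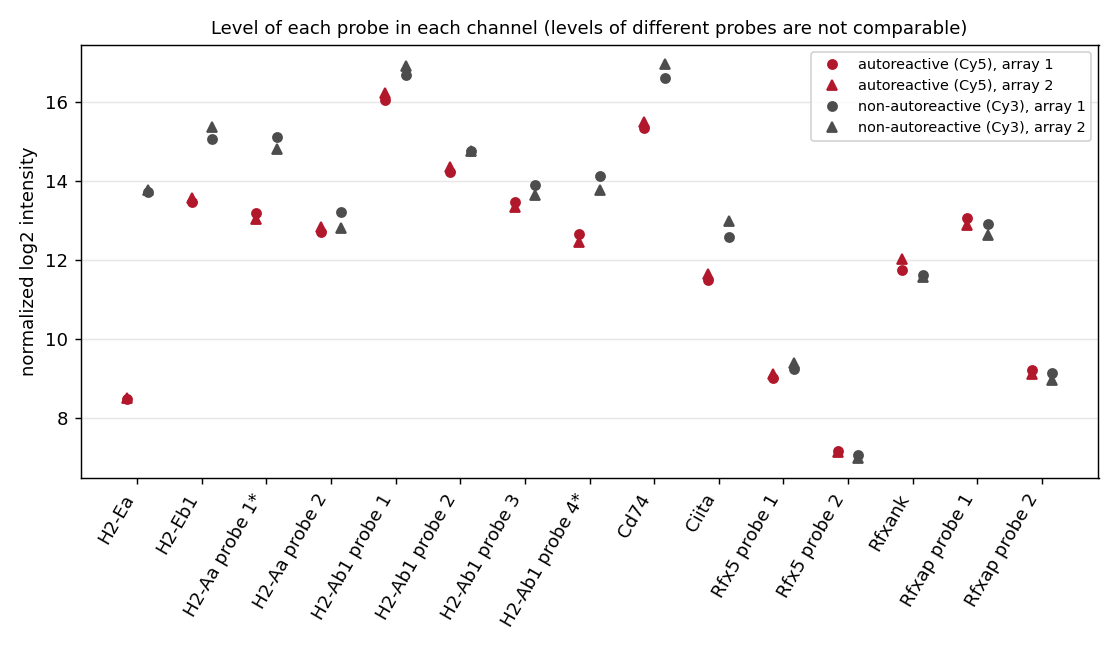
Normalized log2 intensity (vertical axis) of each of the 15 probes in autoreactive cells (red, left of each pair) and non-autoreactive cells (grey, right), with circles for array 1 and triangles for array 2; an asterisk marks probes with no genome position in the files. The channels lie far apart for H2-Ea, at 8.48 and 8.52 in autoreactive cells against 13.71 and 13.78 in non-autoreactive cells, and close together for the RFX genes.

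H2-Ea, the E alpha chain gene, had levels of 8.48 and 8.52 in autoreactive cells, against 13.71 and 13.78 in non-autoreactive cells. The log2 ratio was -5.24 ± 0.12 (SE, n = 2 arrays, limma adjusted p = 0.000187), a 37.8-fold lower signal, and at most 0.00442% of tested probes had a lower ratio. The autoreactive channel was well above background on both arrays, with uncorrected mean intensities of 585 and 539 in autoreactive cells and 8002 and 9459 in non-autoreactive cells. The probe is placed at chr17:32421735-32421794, and the genome build behind this and all other probe positions is not named by the files. H2-Ea was called in all 10 other settings, with ratios between -5.37 and -4.59.

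H2-Eb1, the partner beta chain of I-E, had levels of 13.47 and 13.58 in autoreactive cells, against 15.07 and 15.37 in non-autoreactive cells. The channels did not overlap, and the log2 ratio was -1.70 ± 0.13 (SE, n = 2 arrays, limma adjusted p = 0.00323), 3.24-fold lower. Its single probe is placed at chr17:32392430-32392891, a span of 462 bases. The call held in all 10 other settings, with ratios from -1.77 to -0.64, where -0.64 came from centring on the median of all gene probes.

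H2-Aa, the alpha chain of I-A, gave discordant probes. Probe 1 (A_51_P119760) had levels of 13.20 and 13.05 in autoreactive cells, against 15.12 and 14.81 in non-autoreactive cells, a log2 ratio of -1.84 ± 0.13 (SE, n = 2 arrays, limma adjusted p = 0.00266). Probe 2 (A_52_P343306, chr17:32362310-32362369) had levels of 12.72 and 12.83 in autoreactive cells, against 13.22 and 12.81 in non-autoreactive cells. Its channels overlapped, its ratios were -0.50 on array 1 and 0.018 on array 2, and it was not called (-0.24 ± 0.16, adjusted p = 0.410). The 95% interval of probe 2 ran from -0.63 to 0.15, which does not include the ratio of probe 1.

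H2-Ab1, the beta chain of I-A, had 4 probes, of which 2 were lower. The brightest, probe 1 (A_52_P683598, chr17:32346939-32346998), had levels of 16.05 and 16.22 in autoreactive cells, against 16.67 and 16.90 in non-autoreactive cells. Its log2 ratio was -0.65 ± 0.12 (SE, n = 2 arrays, limma adjusted p = 0.0382). Probe 4 (A_52_P570717) had levels of 12.67 and 12.45 in autoreactive cells, against 14.13 and 13.76 in non-autoreactive cells, a ratio of -1.39 ± 0.13 (adjusted p = 0.00530). The call of probe 1 ended with separate channels in place of ratios within an array (adjusted p = 0.174). Probe 1 stood above 0 under centring on the median of detected probes (0.20, adjusted p = 0.273). Under centring on the median of all gene probes it was called higher (0.74, adjusted p = 0.0024). Probe 4 was called in all 9 settings that kept it.

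The other H2-Ab1 probes were below 0 on both arrays without passing the test. Probe 2 (A_51_P215237, chr17:32345268-32345327) is printed 10 times on each array, with 1 spot left out as an outlier on array 2, which gives a measure of technical spread. Its spots ranged from -0.60 to -0.50 on array 1 and from -0.43 to -0.38 on array 2, an SD between spots of 0.028 and 0.021. The mean ratio was -0.54 on array 1 and -0.40 on array 2, so the arrays differed by more than the spots of either did (-0.47 ± 0.12, adjusted p = 0.0946). Probe 3 (A_51_P215242, chr17:32342603-32342662) stood at -0.37 ± 0.13 (adjusted p = 0.156).

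The probes of H2-Aa and H2-Ab1 with the lowest ratios, H2-Aa probe 1 and H2-Ab1 probe 4, are the only member probes for which the scanner files give no genome position. The 2 had ratios of -1.84 and -1.39, and the 6 other H-2 probes had a median of -0.56. The gap between the lowest and highest probe was 1.60 for H2-Aa and 1.02 for H2-Ab1, larger than in 99.7% and 98.8% of the 5281 genes with several tested probes, where the median gap was 0.186. Over the whole array 135 tested probes had no position, with a median ratio of 0.055, and 2.96% of them were lower in autoreactive cells, against 2.18% of probes with a position. With only positioned probes tested, a setting chosen after seeing the data, 5 member genes were lower, and H2-Aa was no longer among them, since only its probe 2 remained. How well each probe matches the H-2b and H-2d alleles was not tested.

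**Figure D2:**
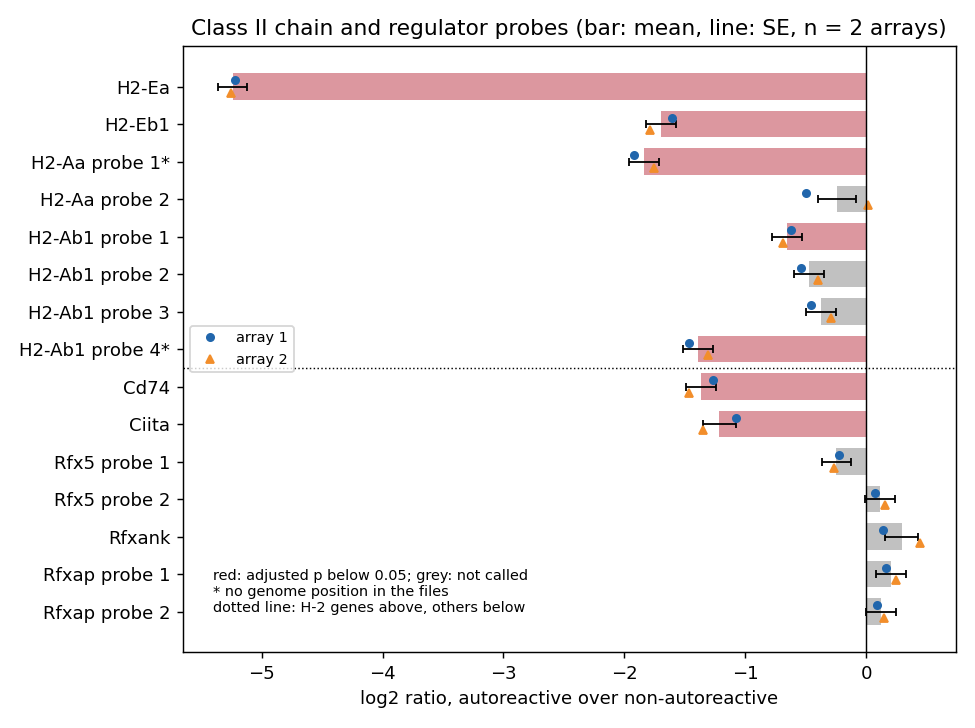
Log2 ratio of autoreactive over non-autoreactive cells (horizontal axis) for each probe, with bars for the mean, lines for the limma SE over 2 arrays, and points for each array; red bars passed the adjusted p of 0.05 and grey bars did not. H2-Aa probe 1 (-1.84) and H2-Ab1 probe 4 (-1.39), marked with asterisks for having no genome position, lie well to the left of the other probes of their genes, and the RFX probes lie around 0.

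Cd74, on chromosome 18 and so outside the H-2 region, had levels of 15.34 and 15.49 in autoreactive cells, against 16.60 and 16.95 in non-autoreactive cells. The channels did not overlap. Array 1 gave a log2 ratio of -1.27 and array 2 one of -1.46, a mean of -1.37 ± 0.13 (SE, n = 2 arrays, limma adjusted p = 0.00601), 2.58-fold lower. Its probe is at chr18:61201860-61201917. Cd74 was called in 9 of 10 other settings, and stood at -0.035 (adjusted p = 0.835) under centring on the median of all gene probes.

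Ciita, on chromosome 16, encodes the coactivator that sets the activity of class II promoters, and its probe is at chr16:10203747-10203806. It had levels of 11.50 and 11.64 in autoreactive cells, against 12.58 and 12.99 in non-autoreactive cells. The log2 ratio was -1.21 ± 0.13 (SE, n = 2 arrays, limma adjusted p = 0.00887), 2.32-fold lower, with -1.08 on array 1 and -1.35 on array 2. With separate channels in place of ratios within an array, Ciita did not pass (adjusted p = 0.0573). Over all settings its adjusted p lay between 0.00265 and 0.0573.

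The RFX genes were not called. Rfx5, a subunit of the complex, had levels of 9.02 and 9.12 in autoreactive cells, against 9.24 and 9.39 in non-autoreactive cells by its brightest probe, a log2 ratio of -0.24 (95% interval -0.54 to 0.053, limma adjusted p = 0.288). The channels of that probe did not overlap, nor did those of Rfxank below, although neither was called. Those of the other Rfx5 probe did not overlap either, at 7.16 and 7.14 in autoreactive cells, against 7.08 and 6.98 in non-autoreactive cells. The other Rfx5 probe stood at 0.12 (interval -0.18 to 0.41, adjusted p = 0.604). Rfxank, the ankyrin repeat subunit, had levels of 11.75 and 12.02 in autoreactive cells, against 11.61 and 11.57 in non-autoreactive cells, a ratio of 0.30 (interval -0.035 to 0.63, adjusted p = 0.254). Rfxap, the accessory subunit, had levels of 13.07 and 12.89 in autoreactive cells, against 12.91 and 12.64 in non-autoreactive cells, a ratio of 0.21 (interval -0.093 to 0.51, adjusted p = 0.360), and its other probe stood at 0.12. The brightest probes of the 3 genes are at chr3:94834570-94834629 for Rfx5, chr8:68589867-68590286 for Rfxank and chr3:54933706-54933765 for Rfxap. The lower bounds of these intervals lie above the ratios of Cd74 and Ciita. Under centring on the median of detected probes, Rfxank (0.47, adjusted p = 0.0444) and Rfxap (0.50, adjusted p = 0.0273) were called higher. Under centring on all gene probes Rfxank stood at 1.01 (adjusted p = 0.00107), Rfxap at 1.04 (adjusted p = 0.000726) and its other probe at 0.55 (adjusted p = 0.00784), all called higher.

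Cd74 and H2-Ab1 probe 1 were among the brightest probes on the arrays, with 224 and 99 tested probes brighter. After loess the 200 probes nearest to them in intensity had median ratios of 0.53 and 0.77, while for each of the 13 other member probes that median lay between -0.050 and 0.047.  In the deposited ratios Cd74 stood at -1.78 and H2-Ab1 probe 1 at -1.07. Centring on the median of all gene probes put the median tested probe at 0.54, Cd74 at -0.035 (adjusted p = 0.835) and H2-Ab1 probe 1 at 0.74, called higher. In that setting the 200 neighbours in intensity had medians of 1.84 for Cd74 and 2.16 for H2-Ab1 probe 1, so the probes lay 1.88 and 1.42 below them. H2-Ab1 probes 2 and 3 and H2-Aa probe 2 also stood above 0 under both centrings.

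**Figure D3:**
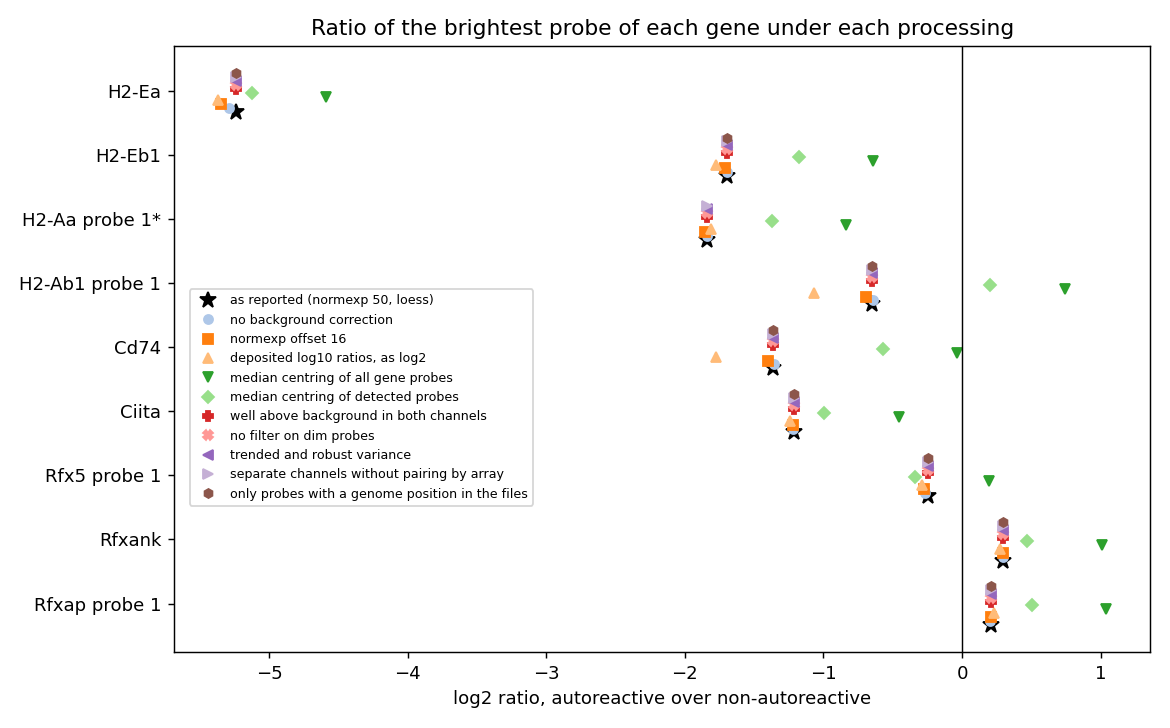
Log2 ratio of autoreactive over non-autoreactive cells (horizontal axis) of the brightest probe of each gene as reported (star) and under 10 other ways of processing (other symbols); an asterisk marks the H2-Aa probe with no genome position, which the setting with positioned probes leaves out. H2-Ea, H2-Eb1, H2-Aa probe 1 and Ciita stay left of 0 in every setting run. Cd74 does so too, but lies next to 0 under centring on all gene probes (-0.035, not called). H2-Ab1 crosses 0 under both median centrings (0.20 and 0.74).

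Genes that act with the members were counted by their brightest probe, with the same background of 2.62% lower and 3.52% higher. Of 12 peptide editors and endosomal proteases, 4 were lower and 1 higher, with a median of -0.30. The lower ones were H2-DMa (-1.17 ± 0.12), H2-DMb1 (-0.76 ± 0.12) and H2-DMb2 (-0.80 ± 0.12), whose products exchange peptides on class II molecules, and the lysosomal reductase gene Ifi30 (-0.96 ± 0.15). H2-DMb1 and H2-DMb2 are close paralogs whose signals may be shared. H2-Ob, a chain of the inhibitor of H2-DM, was higher (1.34 ± 0.15). Limma adjusted p-values of these 5 lay between 0.0079 and 0.0251. None of the 5 was called with separate channels (adjusted p from 0.0614 to 0.170), and H2-DMb1 (0.24) and Ifi30 (0.34) stood above 0 under centring on all gene probes, where H2-DMb2 was at -0.029 (adjusted p = 0.865). H2-DMb1 was also not called from the deposited ratios (adjusted p = 0.0639), nor H2-DMb1 and Ifi30 under centring on detected probes (adjusted p = 0.133 and 0.418).

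Of 12 promoter factors and coactivators, among them the NF-Y subunits and Creb1, only the chromatin remodeller gene Smarca4 was called, as higher (1.00 ± 0.13, limma adjusted p = 0.0118; other probes down to 0.38), and the median was -0.089. Smarca4 is a bright probe, at 16.15 and 16.24 in autoreactive cells, against 15.06 and 15.32 in non-autoreactive cells. The neighbours of Cd74 in intensity had a median of 0.53 after loess, and those of Smarca4 were not measured. Of 12 regulators of the Ciita gene, Pax5, the B lineage factor, was lower (-1.05 ± 0.17, adjusted p = 0.0245) and Irf4 higher (0.89 ± 0.18, adjusted p = 0.0488), with a median of -0.026. Pax5 was at -0.77 on array 1 and -1.33 on array 2, and its other probe gave -0.40. Its call ended without the filter on dim probes (adjusted p = 0.0608), with separate channels (0.376) and under centring on all gene probes (-0.011, adjusted p = 0.950). Irf4 was at 1.23 on array 1 and 0.56 on array 2. The call of Irf4 ended in 5 of 9 other settings. Of 8 surface partners and ubiquitin ligases, Marchf1, whose product marks class II molecules for turnover in B cells, was lower (-1.12 ± 0.14, adjusted p = 0.0107) and the related Marchf8 higher (0.69 ± 0.12, adjusted p = 0.0329), with a median of 0.011. Marchf1 and Smarca4 were not called with separate channels (adjusted p = 0.0504 and 0.0633), nor Smarca4 from the deposited ratios (0.73, adjusted p = 0.0661). Marchf8 lost its call in the same settings (adjusted p = 0.244 with separate channels and 0.0671 from the deposited ratios).

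Within 1 Mb of H2-Ea, by the positions in the files and leaving the members out, 144 probes of 101 genes were tested, of which 13 were lower (9.03%, beside 2.18% of all probes) and 14 higher (9.72%, beside 3.18%), with a median of -0.026. Of the genes named above, H2-DMa, H2-DMb1, H2-DMb2 and H2-Ob lie in this window. The region comes from H-2b in autoreactive cells and from H-2d in non-autoreactive cells.

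Markers of the B lineage and of other cells were measured beside these values. The sort took cells negative for IgD and CD23, surface proteins that mature follicular B cells carry. All 7 B lineage markers were tested, from Pax5 (-1.05) to the adaptor gene Blnk (1.08, not called from the deposited ratios with adjusted p = 0.0577), with a median of 0.39. Of these 7, 2 were called higher and 1 lower, beside 3.52% and 2.62% of all genes. Blnk is a bright probe, at 16.67 and 16.66 in autoreactive cells, against 15.61 and 15.56 in non-autoreactive cells. The 200 probes nearest to Cd74 in intensity had a median of 0.53 after loess, and the neighbours of Blnk were not measured. Of 10 mature B cell markers tested, 5 were lower and none higher, from Ms4a1, which encodes CD20 (-3.61), to Ccr7 (0.76, not called, but higher under both centrings with adjusted p = 0.000401 and 0.00566). Their median was -0.63 on the first array and -0.86 on the other. Plasmacytoid dendritic cells carry B220 and class II, and 1 of their 9 markers (Cox6a2) was lower, with ratios from Siglech (-1.82, not called) to Irf8 (-0.36, not called, above 0 under both centrings). Siglech was called lower under both centrings (-1.47, adjusted p = 0.0102, on all gene probes and -2.01, adjusted p = 0.00856, on detected probes). Their median was -0.74 on array 1 and -2.64 on array 2. Their log2 summed level was 16.10 and 15.91 in autoreactive cells, against 16.38 and 16.78 in non-autoreactive cells, and that of mature B cell markers was 17.10 and 17.27 in autoreactive cells, against 18.45 and 18.25 in non-autoreactive cells. Such sums add different probes and follow the brightest. In the plasmacytoid dendritic cell list that is Irf8, at 15.65 and 15.52 in autoreactive cells, against 15.78 and 16.11 in non-autoreactive cells. Siglech, at 8.37 and 6.91 against 9.24 and 9.68, hardly enters the sum. All tested markers of both lists were above background in both channels. The 15 member probes had gaps of 0.033 to 0.51 between the arrays. The part of mature B cells and of plasmacytoid dendritic cells in the class II ratios was not tested. In pooled cells, fewer cells of a type and less RNA per cell cannot be told apart.

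Conventional dendritic cells (6 of 9 markers tested), macrophages and monocytes (8 tested), granulocytes (7), T and NK cells (9) and erythroid cells (6) had median ratios from -0.72 to -0.080, with 4 genes lower over the 5 lists and none higher. The median was -0.044 on array 1 and -1.20 on array 2 for T and NK cells, 0.060 and -0.86 for granulocytes, -0.11 and -0.42 for conventional dendritic cells, 0.011 and -0.26 for macrophages and monocytes, and -0.53 on both for erythroid cells. Conventional dendritic cell markers ran from Clec10a (-0.37 on array 1 and -2.40 on array 2) to Itgae (0.15 and 0.30), with Itgax at -0.36 and -2.08. None of them was called, and these genes were not run under the alternatives. The dendritic cell genes Clec9a, Cd209a and Ccl22 did not pass the filter on dim probes.

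**Figure D4:**
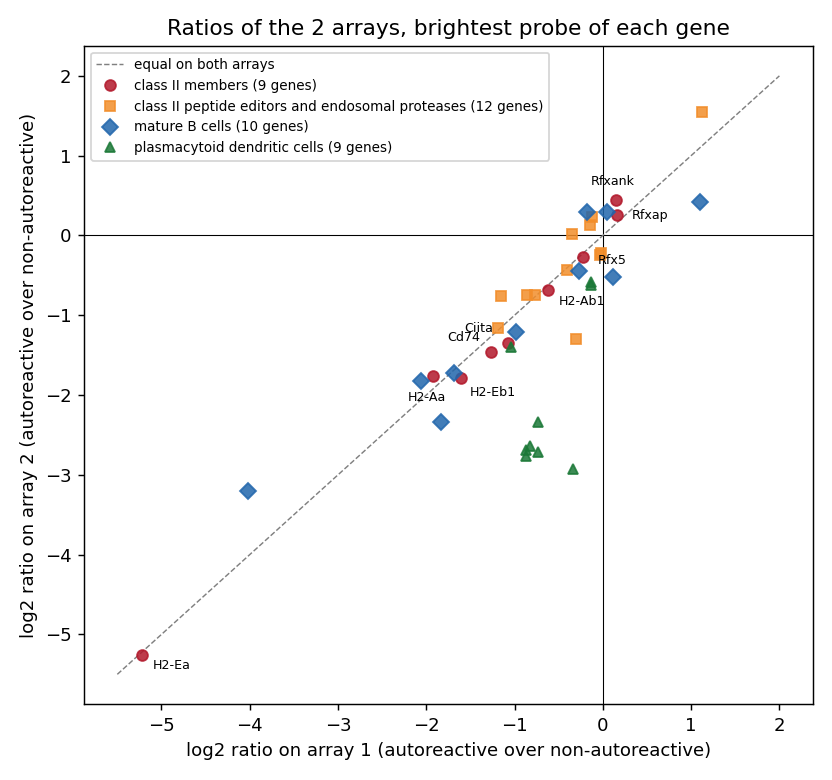
Log2 ratio of autoreactive over non-autoreactive cells on array 1 (horizontal axis) and array 2 (vertical axis), 1 point for the brightest probe of each gene, with members in red, peptide editors in orange, mature B cell markers in blue and plasmacytoid dendritic cell markers in green. The dashed line marks equal ratios; the members plotted differ between the arrays by 0.033 to 0.31, and the plasmacytoid dendritic cell markers have medians of -0.74 and -2.64.

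Among called genes with a name other than a clone or model name, the 5 whose ratios lay nearest to those of Cd74 over the 2 arrays were Pdcd1, Oas2 (-1.29, distance 0.105), Arpp21, Bcl11a (-1.29, distance 0.109) and Sorl1 (-1.36, distance 0.141). Pdcd1 (-1.34) and Arpp21 (-1.34) were not well above background in both channels on each array, and stood at -2.51 and -2.14 in the deposited ratios, so their places depend on the background correction. Cd74 itself stood at -1.78 in the deposited ratios and Oas2 at -1.395, so the distances to Cd74 also depend on the processing. With separate channels Pdcd1, Oas2 and Arpp21 were not called (adjusted p = 0.196, 0.0911 and 0.184). They lie on chromosomes other than 17 and 18. With 2 arrays this likeness describes the size of the ratios and nothing more.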

How the data were processed

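Each array set autoreactive cells (Cy5) against non-autoreactive cells (Cy3). From the deposited scanner files the mean intensity of each spot and the median intensity of its local background were used in both channels. Per the file headers, the extraction program was Agilent Feature Extraction 9.5.1.1. It also gave a log10 ratio, deposited after background subtraction and dye normalization. The series' value table repeats those log10 ratios (largest difference 5e-10, median 0 on both arrays). Outlier and background flags of the program, per the file headers, served as filters. In the second file 1 row break is a bare carriage return and was read as a line end.

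In limma 3.58.1 (R 4.3.3), normexp with an offset of 50 was followed by loess, in which control spots and outliers had a weight of 0. Outliers were then removed and spots of a probe averaged. The filter kept probes well above background on each array in 1 channel or more. Log2 ratios were tested against 0 with lmFit and eBayes (two-sided), and p-values were adjusted by Benjamini-Hochberg across the 22613 probes kept. The procedure was tested on simulated data. Levels are log2 intensities after Aquantile scaling between arrays. Probes were named through RefSeq (GRCm38.p6, names only): 22951 by their main accession, 131 by another, 6582 by symbol and 3073 by synonym, while 8437 kept the name in the file. Promoter windows of 4 of the 9 members were found. Slide and scan could not be tested as batches, since both arrays share them.

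The members, gene lists and tests were chosen with earlier results of these data known. The rule for named genes took the members, the called genes of the pathway lists, the lowest and highest of each marker list, and the 5 called genes nearest to Cd74. It was followed for the mature B, B lineage, plasmacytoid and conventional dendritic cell markers, with Itgax added, and the other marker lists are given as counts and medians. The alternatives are those in the plot of ratios under each processing, each array alone, and the mean over a gene's probes.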

Additional observations from a re-analysis of the deposited data

How the results depend on the processing

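Over the members' probes and the other named genes, 283 of 335 values from alternatives with a test kept their direction and their side of the threshold, 29 lost the call, 9 gained one and 14 changed sign, all 14 under median centring. Changed filters, trended and robust variance, separate channels and positioned probes only left every ratio as reported. In those settings only the call could change, so the count of kept directions says little about them. Each array alone gave 70 further values with no test, of which 69 kept their direction and H2-Aa probe 2 on array 2 (0.018) did not. The count of member genes lower ranged from 4 to 6 over the alternatives and that of member probes lower from 5 to 7. Centring on all gene probes raised the median tested probe to 0.54, called 14318 probes higher and 7 member probes higher, and put above 0 H2-Aa probe 2 (0.60), H2-Ab1 probe 1 (0.74), probe 2 (0.61) and probe 3 (0.56), Rfx5 probe 1 (0.19), H2-DMb1 (0.24), Ifi30 (0.34) and Irf8 (0.92). Centring on detected probes called 3488 probes higher, 3935 lower and 2 member probes higher, and turned H2-Aa probe 2 (0.060), H2-Ab1 probe 1 (0.20), probe 2 (0.074) and probe 3 (0.025), Rfx5 probe 2 (-0.40) and Irf8 (0.38). The deposited ratios called 434 probes higher, and no filter on dim probes left 301 lower, with more probes tested. Separate channels without pairing by array (no replicate block) called 127 higher and 89 lower, with 4 member genes lower, and ended the calls of H2-Ab1 probe 1 (adjusted p = 0.174) and Ciita (adjusted p = 0.0573). The cause of these changes was not tested. The pairing comes from the array, and the labels give no replicate number to the non-autoreactive cells. With 2 arrays of the same dye orientation, a dye effect on a probe cannot be told apart from the groups.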
